A study of Mus musculus with 18 samples.

Results

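The genes described here are 10 members of the NF-κB system, namely the subunit genes Rela, Nfkb1, Nfkb2 and Relb, the inhibitor genes Nfkbia, Nfkbib and Nfkbie, the atypical IκB gene Nfkbiz, and the feedback genes Tnfaip3 and Birc3. They were taken by gene symbol and not by a threshold on a measured value, but the set was proposed with earlier results of these data known. Each has its own row among the 43629 genes of the count table. Expression was measured by QuantSeq, which sequences the 3′ ends of mRNA, in 18 libraries of AT3 cells, a mouse mammary carcinoma cell line that serves as a model of triple-negative breast cancer. All cells were first held for 1 h with A-241 at 250 nM, A-485 at 1000 nM or the solvent DMSO, followed by IFNy (recombinant murine interferon gamma) or vehicle until 3 h in total, with 3 libraries per condition. The conditions are named DMSO, A-241, A-485, IFNy, IFNy+A-241 and IFNy+A-485. A-241 and A-485 are chemically distinct inhibitors of the acetyltransferase activity of P300 and CBP, and were given at different doses, so a difference between them is one between treatments as given. The sample labels call the triplicates biological and the study's own methods call them technical, so p values measure the spread between libraries of 1 cell line and may not cover independent cultures.

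NF-κB is a family of dimeric transcription factors that are held inactive by IκB proteins until receptors for TNF, IL-1 or microbial products activate the IκB kinases. RelA and p50 (from Nfkb1) make up the common dimer of the canonical pathway, whereas RelB and p52 (from Nfkb2) act in the slower non-canonical pathway. NF-κB activates the genes of several of its own inhibitors, among them Nfkbia and Tnfaip3, which closes a negative feedback loop. P300 and CBP acetylate histones at enhancers and are coactivators of many factors, RelA and IRF1 among them.

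RefSeq promoter windows of build GRCm38.p6, from 250 bases before to 50 bases after an annotated start, were at hand for 7 of the 10 members, in 10 windows. Nfkb1, Relb and Nfkbiz had no window, so the searches below say nothing about them. The κB consensus, the site that NF-κB dimers bind, was searched for on both strands and was present in 6 windows of 4 members, namely Nfkb2, Nfkbia, Nfkbie and Tnfaip3. Nfkb2 has 3 of these windows. Those at chr19:46305445-46305744 and chr19:46305680-46305979 overlap and hold the same site, so the 6 windows are not independent. Of all 32851 promoter windows 4.51% held a match. The interferon-response core GAAANNGAAA, also searched on both strands, was found in 0 of the 10 windows (3.44% of all windows). A match describes letters in a window and not a bound site. For each of Nfkb2, Nfkbia and Tnfaip3 a window with matches is shown, because these genes are the textbook cases of NF-κB regulating its own subunits and inhibitors. Each window is written 5′ to 3′ on the strand of the gene with matches to the κB consensus in capitals.
Nfkb2, chr19:46304487-46304786, plus strand: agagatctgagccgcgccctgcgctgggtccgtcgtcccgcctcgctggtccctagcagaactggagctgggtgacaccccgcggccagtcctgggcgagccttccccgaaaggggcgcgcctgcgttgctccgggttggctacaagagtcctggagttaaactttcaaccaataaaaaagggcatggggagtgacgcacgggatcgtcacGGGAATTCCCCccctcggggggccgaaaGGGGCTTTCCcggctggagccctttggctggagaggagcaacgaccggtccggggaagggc
Nfkbia, chr12:55492598-55492897, minus strand: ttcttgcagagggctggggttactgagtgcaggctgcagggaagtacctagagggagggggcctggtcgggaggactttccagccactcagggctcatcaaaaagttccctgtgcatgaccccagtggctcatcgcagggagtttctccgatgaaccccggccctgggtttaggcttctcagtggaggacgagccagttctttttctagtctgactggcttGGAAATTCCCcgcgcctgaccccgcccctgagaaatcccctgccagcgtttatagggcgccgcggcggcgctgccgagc
Tnfaip3, chr10:19015361-19015660, minus strand: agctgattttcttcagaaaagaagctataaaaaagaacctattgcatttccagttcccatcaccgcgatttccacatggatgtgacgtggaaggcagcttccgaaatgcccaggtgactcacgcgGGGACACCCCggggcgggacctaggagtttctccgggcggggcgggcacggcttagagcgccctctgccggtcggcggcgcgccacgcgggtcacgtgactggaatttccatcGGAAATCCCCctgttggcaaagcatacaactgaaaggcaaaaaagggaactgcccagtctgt
The Nfkb2 window shown holds 3 matches, and the first 2 of them overlap in the first run of capitals. The match of Nfkbia lies from 29 to 20 bases before the start (position -29 to -20). Tnfaip3 has 2 matches, at -125 to -116 and at -12 to -3. The windows of Rela, Nfkbib and Birc3 and the other window of Tnfaip3 (chr10:19011914-19012213) held no match, which says only that these letters are not in these windows.

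Between 3417167 and 7856830 counts were obtained per library. By total counts, 3 counts correspond to 0.382 to 0.878 CPM (a library's counts scaled to a fixed total). Levels of genes in single libraries are given in CPM with totals adjusted by TMM factors. On that scale 3 counts in DMSO replicate 3 are 1.04 CPM. Irf1, Socs1 and Cd274, well-known IFNγ targets, rose in IFNy against DMSO by between 5.05 (Irf1) and 7.54 (Cd274) on the log2 scale, all with adjusted p under 0.01. DMSO replicate 3 and IFNy replicate 2 stand apart from the other libraries. The RNA Gm42418 took 20.1% and 23% of their counts against 7.11 to 16.2% elsewhere, their TMM factors were 0.849 and 0.792, and Socs1 had 4 counts in IFNy replicate 2 beside 511 and 320 in the other IFNy libraries. Results of the members that rest on them are therefore given with all 18 libraries and with these 2 left out. Epithelial markers were present (7 of 8 above 3 counts in some library) with a summed level of 1050 to 2020 CPM. Of 6 leukocyte markers, 4 were above 3 counts in some library and Adgre1 was at 0 counts in every library. Together they reached at most 19.1 CPM. Of 4 endothelial markers, 2 were above 3 counts in some library, and Cdh5 and Tek were at 0 counts in every library. Their sum reached at most 4.12 CPM.

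Nfkbiz was the member that differed between conditions, and it was lower with A-241. It encodes IκBζ, an atypical IκB protein of the nucleus that works with p50 to activate a secondary set of inflammatory genes, and lies on chromosome 16 (55811375 to 55838899, minus strand, GRCm38). In IFNy+A-241 against IFNy it fell by 1.45 on the log2 scale (SE 0.31, 95% interval -2.11 to -0.79, n = 3 and 3), which is 2.73-fold lower, with an adjusted p of 0.00731 from edgeR's quasi-likelihood test over 11964 genes. It was the 1 member called of the 7 tested, at a threshold of adjusted p under 0.01, in a comparison in which 4.09% of all tested genes were called.

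The level of Nfkbiz was 21.6, 11.0 and 21.5 CPM in the 3 IFNy libraries and 8.05, 5.87 and 6.19 CPM in those of IFNy+A-241. The groups do not overlap, and the lowest IFNy value is that of the library which stands apart. In IFNy+A-485 the 3 values were 17.8, 13.8 and 15.8 CPM. They lie within the range of IFNy only through its replicate 2, and below its other libraries. The difference was -0.21 (SE 0.29, adjusted p 0.77) with all libraries and -0.46 (SE 0.19, adjusted p 0.141) without the 2 that stand apart. Without IFNy, the level was 17.1, 11.1 and 5.87 CPM in DMSO, 7.36, 5.61 and 5.9 CPM in A-241, and 7.41, 7.83 and 6.51 CPM in A-485. Both inhibitor groups lie low and narrow, whereas DMSO spans the whole range from their level upward. By its median the order of conditions was IFNy (21.5 CPM), IFNy+A-485 (15.8 CPM), DMSO (11.1 CPM), A-485 (7.41 CPM), IFNy+A-241 (6.19 CPM) and A-241 (5.9 CPM). Neighbours in this order overlap in every case. The overlap of IFNy with IFNy+A-485 rests on IFNy replicate 2 (11.0 CPM), and that of DMSO with A-485 on DMSO replicate 3 (5.87 CPM). Without these libraries the values of both pairs are apart. These CPM values rest on 17 to 176 counts per library.

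With the 2 libraries left out, the decrease of Nfkbiz in IFNy+A-241 against IFNy was 1.7 on the log2 scale (SE 0.21, adjusted p 9.92e-06, n = 3 and 2). The call was not held by every set of libraries: with any 1 of the 6 compared libraries left out the difference stayed between -1.69 and -1.30, but only without IFNy replicate 2 was it called (adjusted p 0.000975). Without IFNy replicate 1 or 3, or without IFNy+A-241 replicate 1, 2 or 3, the adjusted p was 0.0197 to 0.0435. Scaling by total counts gave -1.34 (adjusted p 0.0324), where the median of all genes moved to 0.13, and a fit of the 2 conditions alone gave -1.45 (adjusted p 0.0767). The summed level of the 8 epithelial markers was also lower in IFNy+A-241 (1050 to 1210 CPM) than in IFNy (1450 to 1690 CPM), and so was that of the 6 mesenchymal markers (84.4 to 107 CPM against 139 to 193 CPM). In IFNy+A-485 these sums were 1120 to 1280 CPM and 111 to 122 CPM, also below those of IFNy. Their part in the result was not tested. In a bulk measurement, fewer cells that express a gene and less RNA per cell cannot be told apart.

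Without IFNy, the difference of Nfkbiz from DMSO was -0.88 with A-241 (SE 0.32, adjusted p 0.106) and -0.67 with A-485 (SE 0.32, adjusted p 0.408), both on the log2 scale and neither called by edgeR. Without the 2 libraries these became -1.18 (SE 0.22, adjusted p 0.00108) and -0.96 (SE 0.22, adjusted p 0.0117), so that the decrease with A-241 passed the threshold and that with A-485 did not. DMSO then rests on replicates 1 and 2 at 17.1 and 11.1 CPM. Leaving out DMSO replicate 1 in place of replicate 3 gave -0.47 with A-241 (adjusted p 0.385) and -0.27 with A-485 (adjusted p 0.702). The summed epithelial markers were at 1650 to 2020 CPM in DMSO, 1070 to 1110 CPM in A-241 and 1210 to 1310 CPM in A-485, and the mesenchymal ones at 117 to 209, 84.8 to 93.9 and 97.1 to 121 CPM. The part of these shifts in the differences of Nfkbiz was not tested.

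IFNy against DMSO gave a difference of 0.66 for Nfkbiz (SE 0.30, 95% interval 0.02 to 1.30, adjusted p 0.561), or 0.62 (SE 0.21, adjusted p 0.129) without the 2 libraries. The 2 groups overlap only through IFNy replicate 2, at 11.0 CPM. Among cells with A-485, the IFNy libraries were all above those without (13.8 to 17.8 CPM against 6.51 to 7.83 CPM), a difference of 1.12 (SE 0.31, adjusted p 0.139) that became 1.13 (SE 0.20, adjusted p 0.00154) without the 2 libraries. Among cells with A-241 the corresponding difference was 0.09 (SE 0.33, adjusted p 1), with an interval from -0.61 to 0.79. Under IFNy the 2 inhibitors, at their different doses, differed by -1.24 (A-241 minus A-485, SE 0.31, adjusted p 0.0961) without overlap between groups, and by -1.24 (SE 0.20, adjusted p 0.000795) without the 2 libraries. The 2 libraries are in neither group here, and leaving them out changes the shared estimate of the spread, the scaling and the genes tested (12135 in place of 11964). Without IFNy the inhibitors differed by -0.21 (95% interval -0.90 to 0.49, adjusted p 1). The interaction, the response to IFNy with inhibitor minus that without, was -0.58 for A-241 (95% interval -1.52 to 0.37) and 0.46 for A-485 (95% interval -0.46 to 1.37), each with adjusted p 1. Without the 2 libraries these were -0.52 (adjusted p 0.678) and 0.51 (adjusted p 0.45). That IFNy acts differently on Nfkbiz in the presence of either inhibitor was therefore not shown.

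**Figure D1:**
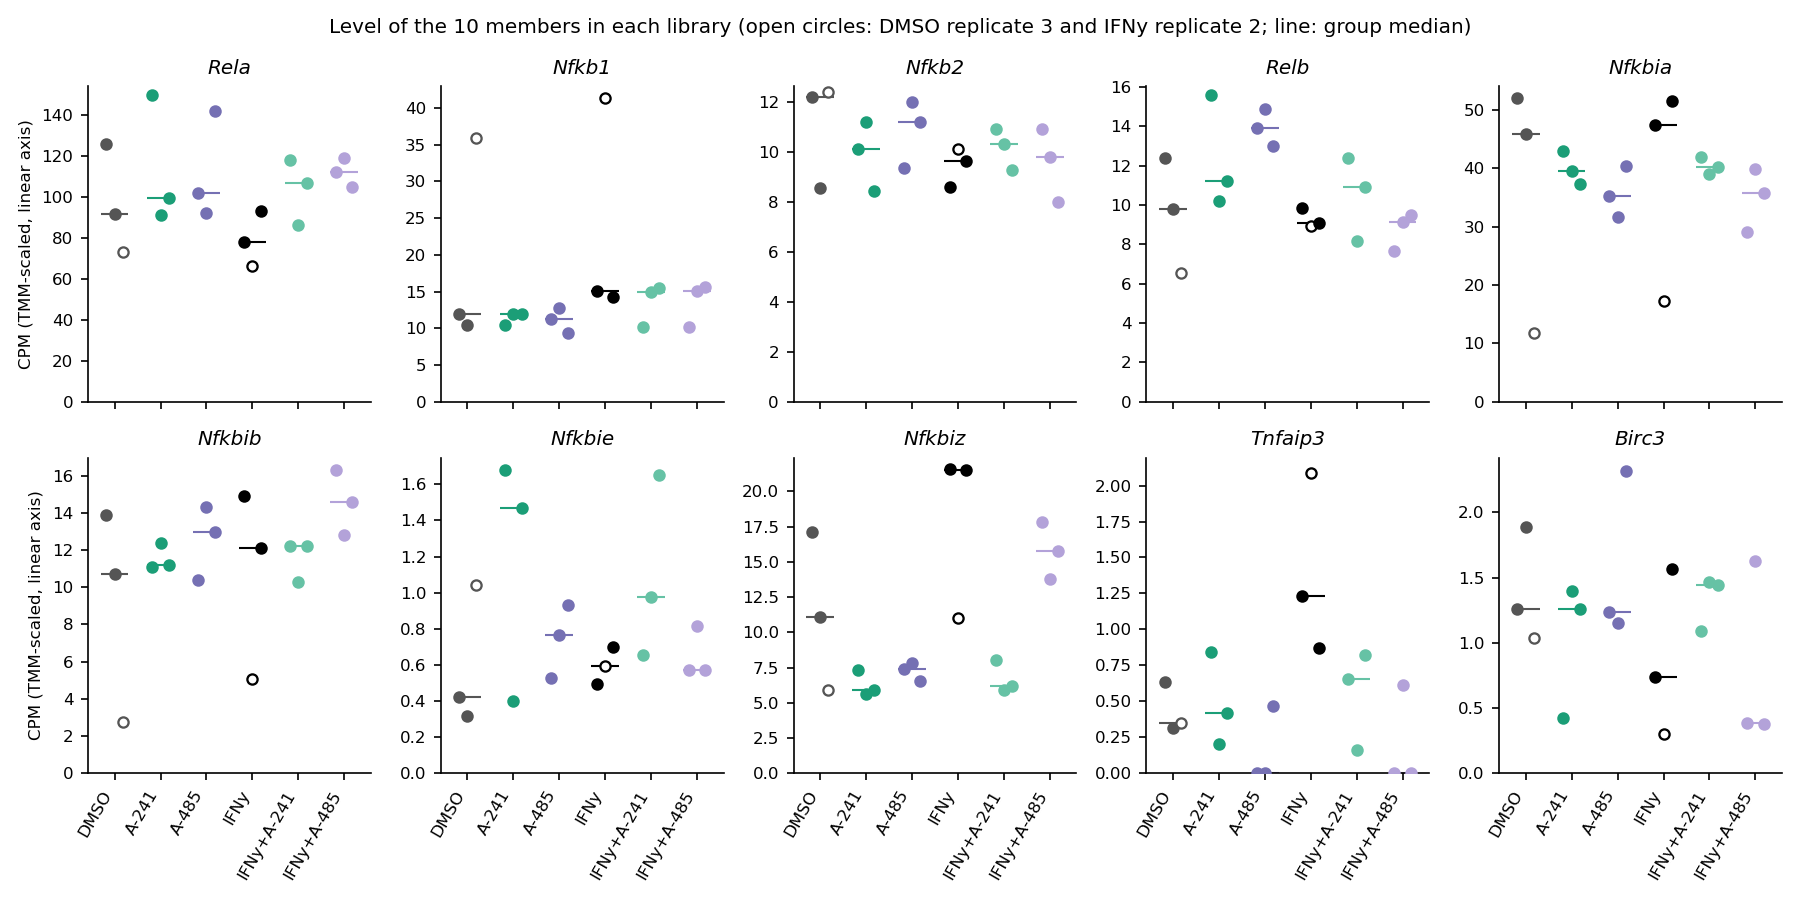
Level of each of the 10 members in CPM (linear axis from 0, a different scale in each panel) in the 3 libraries of each condition, drawn as points in replicate order with a line at the group's median. Open circles are DMSO replicate 3 and IFNy replicate 2, which sit high for Nfkb1 and low for Nfkbia and Nfkbib; Nfkbiz lies at 5.61 to 8.05 CPM in both A-241 conditions.

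Rela encodes the main activating subunit (chromosome 19, 5637483 to 5648130, plus strand). Its level was 126.0, 91.7 and 73.3 CPM in DMSO, 150, 91.3 and 99.7 CPM in A-241 and 102.0, 92.2 and 142.0 CPM in A-485. With IFNy it was 78.0, 66.4 and 93.2 CPM, with IFNy+A-241 118.0, 86.4 and 107.0 CPM, and with IFNy+A-485 112.0, 119.0 and 105.0 CPM. Libraries of 1 condition differ about as much as conditions do, and most groups overlap. The 3 values of IFNy+A-485 lie above those of IFNy. This difference was 0.50 on the log2 scale (SE 0.24, adjusted p 0.344) and 0.38 without the 2 libraries (SE 0.21, adjusted p 0.279). The other differences of Rela ran from -0.29 in IFNy against DMSO to 0.39 in IFNy+A-241 against IFNy, with adjusted p of 0.396 or more.

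Nfkb1, the gene of p105 and p50 (chromosome 3, 135584655 to 135691547, minus strand), shows how far 2 libraries can carry a mean. Its level was 12, 10.4 and 35.9 CPM in DMSO and 15.1, 41.4 and 14.2 CPM in IFNy, and between 9.29 and 15.6 CPM in the other 12 libraries. The high values are those of DMSO replicate 3 and IFNy replicate 2. With all 18 libraries each inhibitor differed from its control by -0.71 to -0.76 on the log2 scale (adjusted p 0.362 to 0.533). Without the 2 libraries the differences were 0.01 for A-241 and -0.03 for A-485 against DMSO, and -0.11 for IFNy+A-241 and -0.12 for IFNy+A-485 against IFNy, with 95% intervals that reach from -0.56 to 0.48 in all. IFNy against DMSO was 0.29 (SE 0.44) with all libraries and 0.38 (SE 0.24, adjusted p 0.409) without the 2.

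Of the subunits of the non-canonical pathway neither was called in any comparison, and Relb varied more than Nfkb2. Nfkb2 (chromosome 19, 46304320 to 46312385, plus strand) was between 7.98 and 12.4 CPM in every library, and its differences between conditions were -0.22 to 0.11 on the log2 scale over the 9 comparisons of 2 conditions. The SE of each was 0.20. It shares 299 exon bases with Psd on the other strand, and since the counting set no strand option and counted a read over both genes for each, a part of these counts may belong to Psd. Relb (chromosome 7, 19606217 to 19629438, minus strand) was 13.9, 14.9 and 13 CPM in A-485 and 12.4, 9.79 and 6.56 CPM in DMSO, groups that do not overlap. The difference was 0.52 (SE 0.23, adjusted p 0.368), or 0.31 (SE 0.22, adjusted p 0.523) without the 2 libraries. In IFNy+A-485 Relb was 7.66, 9.16 and 9.5 CPM, below all A-485 libraries without IFNy, a difference of -0.67 (SE 0.23, unadjusted p 0.00993, adjusted p 0.377) that stayed uncalled without the 2 libraries (-0.66, adjusted p 0.0958). In the other conditions Relb lay between 8.15 and 15.6 CPM.

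Nfkbia encodes IκBα, the inhibitor that NF-κB induces most directly (chromosome 12, 55489410 to 55492647, minus strand). Its level was 52.1, 45.9 and 11.7 CPM in DMSO and 47.4, 17.3 and 51.6 CPM in IFNy, with the low value of each group in the library that stands apart. In the inhibitor conditions it was 42.9, 39.5 and 37.3 CPM with A-241, 35.3, 31.7 and 40.4 CPM with A-485, 42.0, 39.0 and 40.2 CPM with IFNy+A-241, and 29.1, 39.9 and 35.7 CPM with IFNy+A-485. All 12 of these values lie below those of the other 4 libraries of DMSO and IFNy, and above those of the 2 apart. The direction of the difference therefore turns with the 2 libraries for A-241: against DMSO it was 0.10 (SE 0.40) with all and -0.33 (SE 0.14, adjusted p 0.137) without them, and in IFNy+A-241 against IFNy 0.04 (SE 0.40) and -0.30 (SE 0.14, adjusted p 0.182). For A-485 the differences were -0.05 and -0.17 with all libraries, and -0.48 (SE 0.14, adjusted p 0.0631) and -0.51 (SE 0.14, adjusted p 0.0329) without the 2, without and with IFNy in turn. No fit called Nfkbia at 0.01. IFNy against DMSO was 0.08 (SE 0.40, adjusted p 0.994) with all libraries and 0.00 (95% interval -0.32 to 0.33) without the 2.

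Nfkbib, the gene of IκBβ (chromosome 7, 28758251 to 28767512, minus strand), had 2.76 CPM in DMSO replicate 3 and 5.06 CPM in IFNy replicate 2, and between 10.3 and 16.3 CPM in the other 16 libraries. Its differences from the controls were 0.07 to 0.41 with all libraries and -0.24 to 0.10 without the 2, and none was called. Under IFNy it was lower with A-241 (12.2, 10.3 and 12.2 CPM) than with A-485 (16.3, 12.8 and 14.6 CPM) in every library, a difference of -0.34 (SE 0.38, adjusted p 1) or -0.34 (SE 0.17, adjusted p 0.41) without the 2. Nfkbib shares 356 exon bases with Ccer2 and Sirt2 on the other strand, so that reads of these genes may be counted for it.

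Nfkbie, Tnfaip3 and Birc3 were too low for the test and did not pass the filter on low counts. Nfkbie, the gene of IκBε (chromosome 17, 45555703 to 45563169, plus strand), had 2 to 8 counts per library. Birc3, the gene of the ubiquitin ligase cIAP2 (chromosome 9, 7848699 to 7873186, minus strand), had 1 to 12 counts. Tnfaip3 encodes A20, a ubiquitin-editing enzyme that shuts off signalling upstream of the IκB kinases (chromosome 10, 19000910 to 19015657, minus strand), and had 0 to 10 counts. In IFNy its counts were 10, 7 and 5, and in DMSO 3, 2 and 1. It had 3, 1 and 4 counts in IFNy+A-241, and 0, 3 and 0 in IFNy+A-485. The counts of IFNy lie above all those of the other 5 conditions, whose highest value is 4, but libraries differ in depth. In CPM the lowest value of IFNy was 0.874 and the highest of the other conditions 0.841 (A-241 replicate 1). The share of all genes that separate like this was not determined. At this depth most of the counts are at or near the limit of 3 counts. Summed over the libraries of a condition and scaled by total counts without TMM factors, Tnfaip3 was at 1.23 CPM in IFNy (exact Poisson 95% interval 0.771 to 1.86). In DMSO it was at 0.418 CPM (0.153 to 0.91). The intervals cover counting error only. In a fit without any filter, the difference was 1.56 (SE 0.89, adjusted p 0.89), and no comparison called any of the 3 genes. The lowest adjusted p among them was 0.333 (Tnfaip3 in IFNy+A-485 against IFNy).

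Over the 7 members tested, no member was called in the other 10 comparisons by edgeR, and DESeq2 and limma-voom also called none there. In IFNy against DMSO 1.3% of all genes were called, and 1 member (Nfkbiz) had an unadjusted p under 0.05. In A-241 against DMSO 4.35% were called and 1 member (Nfkbiz) was under 0.05, and in A-485 against DMSO 0.66% and 1 member (Relb). In IFNy+A-485 against IFNy 0.552% were called and 0 members were under 0.05. Between the inhibitors 0.368% of genes were called without IFNy (0 members under 0.05) and 0.518% with it (1 member, Nfkbiz). IFNy+A-241 against A-241 called 0.192% (0 members under 0.05) and IFNy+A-485 against A-485 0.802% (2 members, Relb and Nfkbiz). The interactions called 0.0334% of genes for A-241 and 0% for A-485, with 0 members under 0.05 in each. The median difference over the 7 members was 0.08, 0.10 and -0.02 in IFNy, A-241 and A-485 against DMSO, and 0.07 and -0.09 in IFNy+A-241 and IFNy+A-485 against IFNy, where the median of all genes lay between -0.03 and 0.01.

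Without the 2 libraries, Nfkbiz was the 1 member called in 4 comparisons. These were A-241 against DMSO (8.13% of all genes called), IFNy+A-241 against IFNy (7.82%), IFNy+A-241 against IFNy+A-485 (1.29%) and IFNy+A-485 against A-485 (1.67%). In IFNy against DMSO (2.03% of all genes), A-485 against DMSO (2.46%) and IFNy+A-485 against IFNy (2.68%) no member was called, and 1, 2 and 2 members were under an unadjusted p of 0.05. With all 18 libraries, groups that do not overlap were seen for 0 of 7 members in IFNy against DMSO, where 7.85% of all genes did not overlap, and 0 of 7 in A-241 against DMSO (26.7%). They were seen for 1 of 7 in A-485 against DMSO (Relb, 15.9% of all genes), in IFNy+A-241 against IFNy (Nfkbiz, 23.8%) and in IFNy+A-485 against IFNy (Rela, 20.6%). In these 5 comparisons the share of the members is below that of all genes, but it rests on 0 or 1 gene of 7. Each of the 5 includes the DMSO or the IFNy group, where a library standing apart can by itself make groups overlap. In the other 4, groups did not overlap for 0 of 7 members in A-241 against A-485 (22.6% of all genes) and in IFNy+A-241 against A-241 (13.3%). They did not overlap for 2 of 7 in IFNy+A-241 against IFNy+A-485 (Nfkbib and Nfkbiz, 19.7%) and for 2 of 7 in IFNy+A-485 against A-485 (Relb and Nfkbiz, 18%), where the share of the members is above that of all genes but rests on 2 genes.

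**Figure D2:**
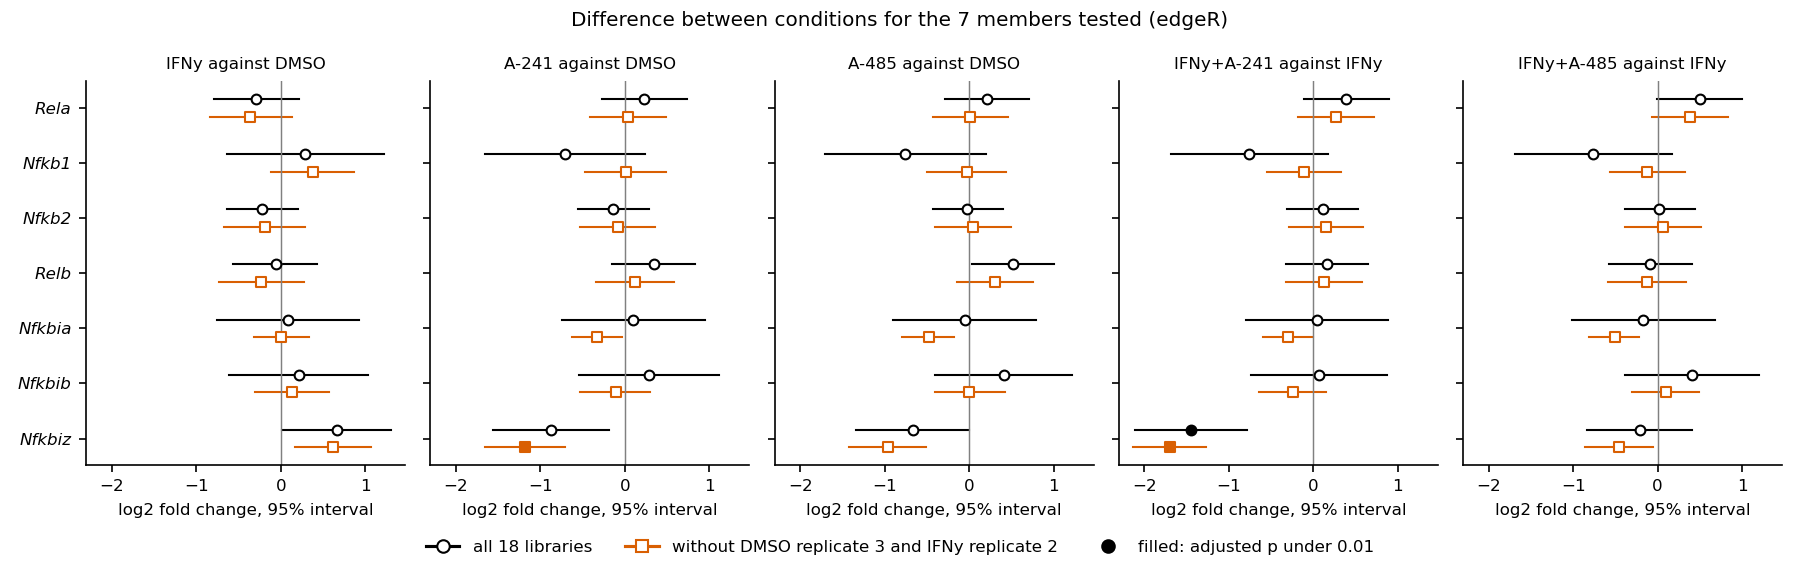
Difference between 2 conditions on the log2 scale (x axis) for the 7 members tested, with 95% intervals, in each of 5 comparisons; black circles are the fit of all 18 libraries and orange squares that without DMSO replicate 3 and IFNy replicate 2. Filled symbols, at adjusted p under 0.01, are those of Nfkbiz in IFNy+A-241 against IFNy in both fits (-1.45 and -1.7) and in A-241 against DMSO in the second (-1.18).

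Around the members, 80 further genes of the pathway were followed in 6 lists, of which 62 passed the filter. The lists were chosen with earlier results of these data known. Their calls beside the share of all genes are therefore no test of the pathway. With all 18 libraries, 7 were called higher and 0 lower in IFNy against DMSO (1.3% of all genes called), 0 higher and 9 lower in A-241 against DMSO (4.35%), and 0 higher and 8 lower in IFNy+A-241 against IFNy (4.09%). With A-485, 0 were called against DMSO (0.66%), and 1 was lower against IFNy (0.552%). Their median difference was 0.13 with IFNy, -0.12 with A-241, -0.13 with A-485, -0.37 in IFNy+A-241 against IFNy and -0.19 in IFNy+A-485 against IFNy. Over all genes the medians were between -0.03 and 0.01. The calls were repeated with 1 compared library left out at a time, and of 30 calls in all comparisons 11 were kept every time and 4 were never kept. A fit of the 2 conditions alone kept 0 of the 24 calls against DMSO or IFNy that it could test (adjusted p 0.0123 to 0.473). It called fewer of all genes there as well, with 19 in IFNy against DMSO, 75 in A-241 against DMSO, 83 in IFNy+A-241 against IFNy and 0 in IFNy+A-485 against IFNy. In the comparisons without the DMSO and IFNy groups it kept 5 of 5. Below, a call said to be kept with each library left out is one kept in the shared fit of the remaining libraries. The epithelial and mesenchymal marker sums given above were lower too, without overlap, in both comparisons with A-241, and their part was not tested.

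Among the 3 other subunit and nuclear IκB genes tested, Bcl3 was lower with A-241. Bcl3 is, like IκBζ, a nuclear IκB protein that binds p50 and p52 dimers. It was 13.3, 12.8 and 10 CPM in DMSO, 2.94, 3.0 and 0.843 CPM in A-241 and 6.88, 8.4 and 6.51 CPM in A-485. With IFNy it was 15.7, 10.7 and 15.7 CPM, with IFNy+A-241 3.05, 1.3 and 2.06 CPM, and with IFNy+A-485 7.85, 9.78 and 8.55 CPM. All libraries of A-241 lie below all of A-485, and these below all of the condition without inhibitor. Bcl3 fell by 2.40 in A-241 against DMSO (SE 0.35, adjusted p 0.000289) and by 2.75 in IFNy+A-241 against IFNy (SE 0.34, adjusted p 7.01e-05), 5.29-fold and 6.72-fold lower. Both calls were kept with any compared library left out, but not in a fit of the 2 conditions alone (adjusted p 0.0272 and 0.0123). Between the inhibitors under IFNy it differed by -2.05 (SE 0.35, adjusted p 0.00514), a call that was lost whichever of the 6 libraries was left out (adjusted p 0.0101 to 0.0603) and that without both libraries standing apart had an adjusted p of 0.000424.

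Of 15 receptors and adaptors tested, 4 rose in IFNy against DMSO, where the median of the 15 was 0.08. Irak2, a kinase-like adaptor of the IL-1 and Toll-like receptors, rose by 2.98 (SE 0.52, adjusted p 0.00297), Myd88, the adaptor upstream of it, by 1.96 (SE 0.26, adjusted p 0.000237), Tnfrsf1a, the TNF receptor TNFR1, by 1.30 (SE 0.23, adjusted p 0.00353), and Tlr3, a receptor for double-stranded RNA, by 1.23 (SE 0.20, adjusted p 0.00158). The call of Myd88 was kept with each library left out, and all 4 were lost in a fit of the 2 conditions alone (Myd88 0.13, Tlr3 0.203, Irak2 0.288 and Tnfrsf1a 0.446, all adjusted p). That of Irak2 was lost without DMSO replicate 1 or IFNy replicate 1 or 3, that of Tlr3 without DMSO replicate 2, and that of Tnfrsf1a without any library but IFNy replicate 2. Irak2 was also not called by limma-voom (adjusted p 0.0273), and Tnfrsf1a not with total counts (adjusted p 0.0242). Irak2 was 21.3, 4.47 and 17.3 CPM in IFNy and at most 5.3 CPM in the other 5 conditions, so that IFNy replicate 2 lies within their range.

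In IFNy+A-241 against IFNy, 4 of these 15 genes were lower, and the median of the 15 was -0.82. Irak2 fell by 3.25 (SE 0.52, adjusted p 0.000753) and Tlr3 by 1.39 (SE 0.20, adjusted p 0.000261), both kept with each library left out but not in a fit of the 2 conditions alone (adjusted p 0.0435 and 0.0213). Tnfrsf1a fell by 1.12 (SE 0.23, adjusted p 0.00481), a call kept only without IFNy replicate 2. Il1r1, the IL-1 receptor, had 23, 28 and 31 counts in IFNy and 1, 2 and 4 in IFNy+A-241, and its call (adjusted p 0.00111) was lost without IFNy+A-241 replicate 1 or 2. Without IFNy, Tnfrsf1b, the TNF receptor TNFR2, had 24, 18 and 13 counts in DMSO and 1, 3 and 2 in A-241 (adjusted p 0.000782, kept with each library left out, and 0.0176 in a fit of the 2 conditions alone). Il1r1 (adjusted p 0.00452) and Tlr3 (adjusted p 0.00741) were also called lower there. Each of these 2 calls was lost with most libraries left out: that of Il1r1 held without DMSO replicate 2 or A-241 replicate 3, and that of Tlr3 without DMSO replicate 3.

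**Figure D3:**
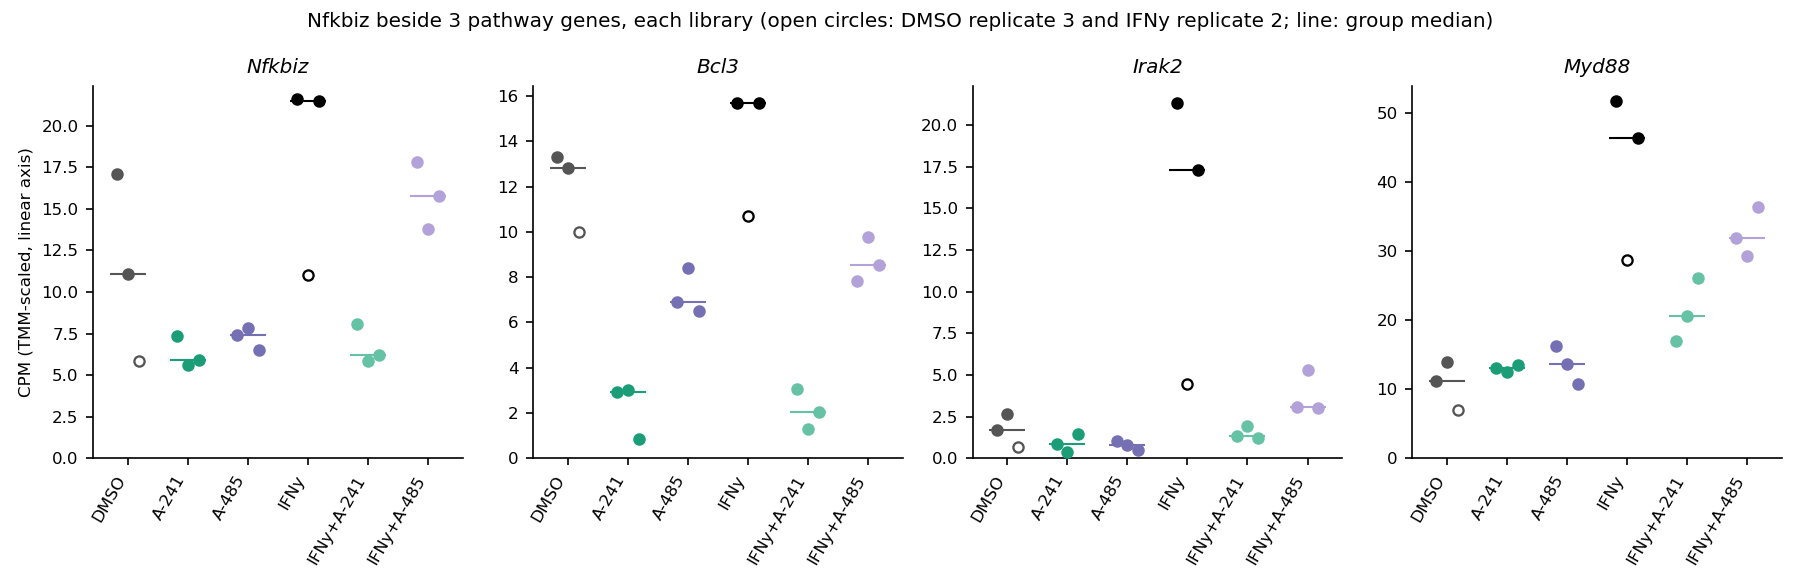
Level in CPM (linear axis from 0, a different scale in each panel) of Nfkbiz and of the pathway genes Bcl3, Irak2 and Myd88 in the 3 libraries of each condition, with a line at the group's median and open circles for DMSO replicate 3 and IFNy replicate 2. Bcl3 lies at 0.843 to 3.05 CPM in both A-241 conditions, and in IFNy the open circle is the lowest point in all 4 panels.

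Kinases and ubiquitin machinery gave few calls. Of 11 kinases and adaptors tested, Ripk1, the kinase that links TNFR1 to the IκB kinases, rose by 1.22 in IFNy against DMSO (SE 0.19, adjusted p 0.000941, kept with each library left out, but 0.23 in a fit of the 2 conditions alone), and 0 were called with either inhibitor. Of 13 genes of the ubiquitin machinery and other feedback 0 were called in any comparison with all 18 libraries. Without the 2 libraries Cyld, a deubiquitinase that removes the chains on which the kinases assemble, was lower by 0.67 in A-241 against DMSO (adjusted p 0.00812) and by 0.72 in IFNy+A-241 against IFNy (adjusted p 0.00459).

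Of the target genes, 9 secreted or surface and 11 intracellular ones were tested. Csf1, the growth factor of macrophages, was 11.0, 12.9 and 15.9 CPM in DMSO, 28.8, 27.1 and 21.9 CPM in IFNy, 7.18, 9.13 and 8.66 CPM in IFNy+A-241 and 8.99, 9.98 and 8.55 CPM in IFNy+A-485. It rose by 0.98 with IFNy (SE 0.18, adjusted p 0.00506), and fell by 1.63 in IFNy+A-241 and 1.5 in IFNy+A-485 against IFNy (SE 0.18 each, adjusted p 2.82e-05 and 0.000555). Both decreases were kept with each library left out, and the increase was lost without DMSO replicate 1 or 2 or IFNy replicate 1. Csf1 also fell by 1.64 in A-241 against DMSO (SE 0.20, adjusted p 6.83e-05). In a fit of the 2 conditions alone, the adjusted p was 0.473 for the increase with IFNy, 0.0134 in IFNy+A-241 and 0.102 in IFNy+A-485 against IFNy, and 0.0184 in A-241 against DMSO. It was the 1 pathway gene called in A-485 against DMSO or IFNy+A-485 against IFNy with all 18 libraries.

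Cxcl5, a chemokine that attracts neutrophils, was 78.8, 81.6 and 15.5 CPM in DMSO and 4.21, 3.0 and 3.16 CPM in A-241, but 63.9, 58.4 and 69.7 CPM in A-485. With A-241 it fell by 4.09 (SE 0.72, adjusted p 0.00175), a call lost without any 1 of the A-241 libraries, with limma-voom (adjusted p 0.0326) and in a fit of the 2 conditions alone (adjusted p 0.019), and it fell by 4.57 (SE 0.19, adjusted p 2.01e-11) without the 2 libraries standing apart. Between A-241 and A-485 it differed by -4.20 (adjusted p 0.00862), lost without any of the 6 libraries, and by -4.21 (adjusted p 9e-11) without the 2. In IFNy it was 73.0, 6.26 and 75.0 CPM, the low value again in replicate 2, and in IFNy+A-241 9.14, 8.64 and 5.36 CPM. Among the intracellular targets Tnfaip2, Ier3 and Bcl2l1 were called lower in A-241 against DMSO (-1.97, -1.21 and -1.05), and Gadd45b and Tnfaip8 in IFNy+A-241 against IFNy (-1.56 and -0.81). Tnfaip8 rose by 0.99 with IFNy (adjusted p 0.00401). None of these 6 calls was kept with each library left out, whichever group it came from.

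Without the 2 libraries, 63 pathway genes were tested and 10 were called higher in IFNy against DMSO, 13 lower in A-241 and 2 lower in A-485 against DMSO, and 17 lower in IFNy+A-241 and 5 lower in IFNy+A-485 against IFNy. All 25 calls made in these 5 comparisons with all 18 libraries, on the pathway genes, were among these 47. The shares of all genes called, given above, rose as well. Some calls on secreted and surface targets were made only in this fit. Ccl2 rose by 7.6 (SE 1.23) and Icam1 by 7.15 (SE 1.35) in IFNy against DMSO. In A-241 against DMSO, Cxcl1 and Cxcl2 were lower (-4.02 and -3.11). Icam1 and Cxcl5 (-3.26 each), Cxcl2 (-2.75), Cxcl1 (-2.71) and Lif (-2.06) were lower in IFNy+A-241 against IFNy. Lif was also lower in IFNy+A-485 against IFNy (-2.5). No pathway gene was called in the opposite direction in any of these 5 comparisons, nor in an interaction, by either fit.

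**Figure D4:**
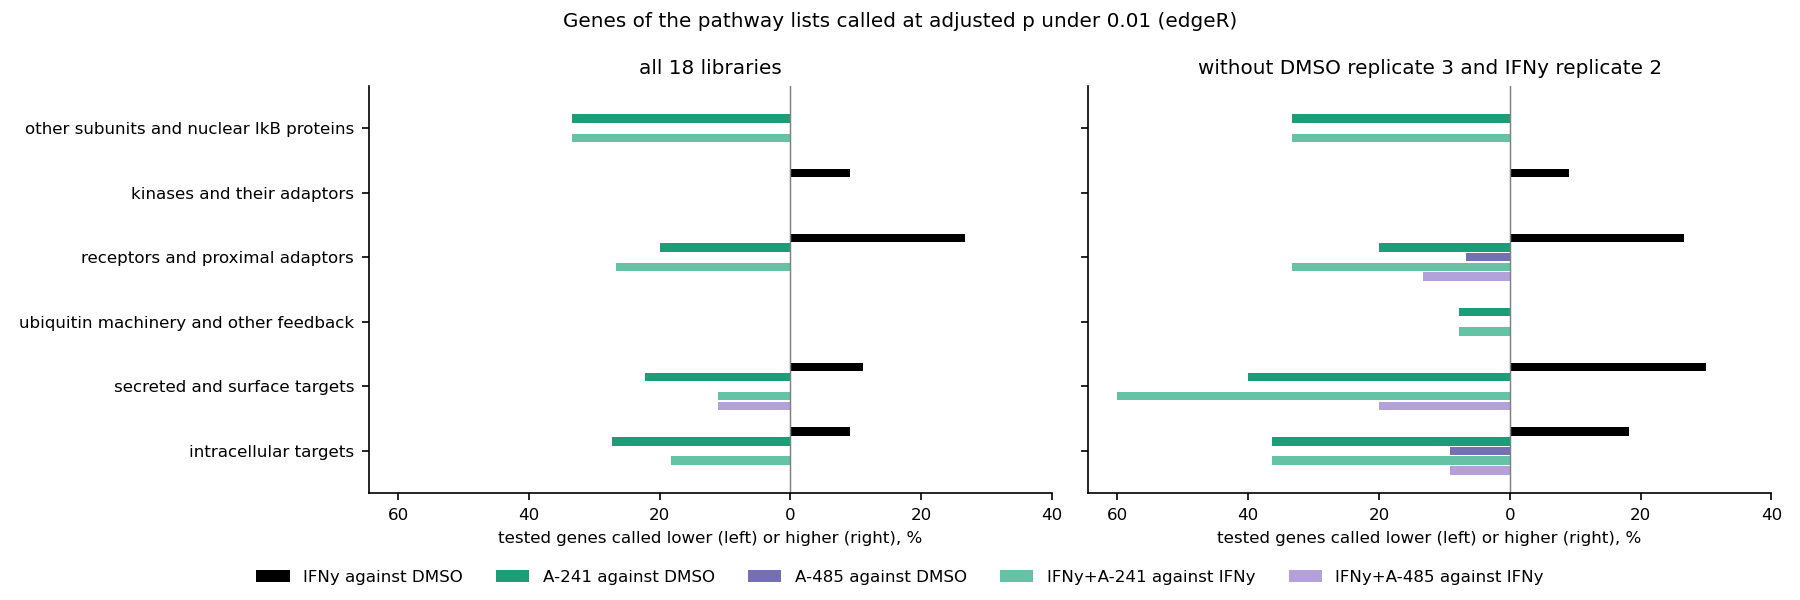
Share of the tested genes of each pathway list that was called lower (to the left) or higher (to the right), in percent of those tested in that fit, for 5 comparisons at adjusted p under 0.01; left, all 18 libraries, and right, without DMSO replicate 3 and IFNy replicate 2. Increases are those of IFNy against DMSO, and decreases are mostly those of the 2 comparisons with A-241, in either fit.

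The genes whose pattern was most like a member's over the log2 CPM of all 18 libraries were, for Nfkbiz, Cblb, Trib3 and Rnf144b (Pearson's r 0.899, 0.878 and 0.877). Over the 16 libraries without those standing apart they were Gclm, Pik3r1 and Deptor (r 0.953, 0.943 and 0.937). For Nfkbia they were Kifc3, Gm8292 and Anp32e over 18 libraries (r 0.953 to 0.949) and Lgalsl, St3gal5 and Cdh1 over 16 (r 0.89 to 0.833). For Nfkb1 they were Maoa, Scpep1 and Bak1 over 18 (r 0.954 to 0.939) and Tgfbr1, Trappc11 and Map4k3 over 16 (r 0.845 to 0.771). For these 3 members no gene is among the 3 most like in both sets. For Rela, Utp3 and Lage3 were among the 3 in both, with r from 0.954 to 0.929. The points of each correlation are libraries of the same 6 conditions and share their depth and scaling, so r describes these libraries alone.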

How the data were processed

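The authors made the counts from 75-base single-end QuantSeq reads; the submitters' processing notes name bcl2fastq 2.17.1.14, FastQC 0.11.5, cutadapt 1.7, HISAT2 2.1.0 and featureCounts, on mm10. What was deposited is a table of raw, whole-number counts, without normalization. The featureCounts settings let 1 read count for every gene whose exons it overlapped and set no strand. Gene symbols and positions came from GENCODE vM21 of GRCm38, which named 42462 of 43629 identifiers (97.3%).

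Genes were kept by filterByExpr, which left 11964, and edgeR 4.0.16 (R 4.3.3) fitted the 6 conditions of all 18 libraries together, with TMM factors, glmQLFit and glmQLFTest. Adjusted p values follow Benjamini and Hochberg and span every tested gene; those under 0.01 are calls. SE and 95% intervals are those of the log2 fold change, CPM are TMM-scaled unless said otherwise, and log2 CPM used a prior count of 2. Replicate libraries of a condition differed by more than sampling noise (chi-square per degree of freedom 2.13 to 135), so all were counted. On simulated data for A-241 against DMSO over 11822 genes, 77.8% of 99 genes changed by 2 on the log2 scale and 8.16% of 98 changed by 1 were called, with 0 false calls. No simulated library was made to stand apart as DMSO replicate 3 and IFNy replicate 2 do. Fewer genes were changed than the 521 called in the real comparison, which makes the adjustment of p stricter. These figures may therefore not hold for the real libraries.

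The members and the pathway lists were chosen with earlier results of these data known. Named pathway genes are, per list and comparison, the called genes with at most the 4 largest changes in each direction; genes called only without the 2 libraries were named after their values were seen. Genes most like a member are the 3 with the highest Pearson's r. Alternatives were limma-voom (limma 3.58.1), DESeq2 1.42.0, other scalings and filters, Gm42418 left out, only the groups compared, the replicate block, and libraries left out. DESeq2 gave no adjusted p for some genes, and these stayed without one. Promoters are from RefSeq (GRCm38.p6). A gene of the check on the IFNy labels and a motif are not reported here.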

Additional observations from a re-analysis of the deposited data

How the results depend on the processing

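Of 759 values of the members under alternatives other than leaving out 1 library, 744 kept their call or, where uncalled in both fits, moved by less than 1 SE. Of the rest, 8 uncalled values moved further, 5 became called and 2 lost their call. In all 0 called values changed sign, and 35 uncalled ones did, none of them beyond 0.33 after the change. The count of members called in IFNy+A-241 against IFNy was 1, and it became 0 with total counts and with only the groups compared. It was 0 to 1 with 1 compared library left out. In A-241 against DMSO, IFNy+A-241 against IFNy+A-485 and IFNy+A-485 against A-485 the count was 0, and 1 without DMSO replicate 3 and IFNy replicate 2 together. In the last 2 of these it was also 1 with only the groups compared. The cause of these changes was not tested. With 1 library left out, 526 of 546 values were unchanged in the same sense, 0 called values changed sign and 80 uncalled ones did.

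The replicate numbers were not found to pair the libraries: 15 of 45 pairs with the same number had a correlation of deviations over 0.1, with a median of -0.018. With the replicate block the difference of Nfkbiz in IFNy+A-241 against IFNy was -1.43 (adjusted p 0.00627), and the count of members called was the same in all 11 comparisons. Of the 30 calls of pathway genes with all 18 libraries, those against DMSO or IFNy were kept for 25 of 25 with DESeq2, 20 with limma-voom, 20 without a filter, 18 with total counts, 18 with the replicate block and 0 of 24 with only the groups compared. Of the other 5 calls, these kept 5, 4, 4, 2, 2 and 5 in turn.

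Depth limits the results for Nfkbie, Tnfaip3 and Birc3, at 12 counts or fewer per library. With 3 libraries per condition a change by 1 on the log2 scale was rarely called in simulated data, whose setting differs from the real libraries as described above. At a threshold of 0.05 in place of 0.01 the fit of all 18 libraries gave the same counts of members called.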
